A study of Mus musculus with 6 samples.

Results

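The extraembryonic lineage transcription factors Gata2, Gata3, Gata4, Gata6, Tfap2a, Tfap2c, Hand1, Elf5 and Eomes, 9 in all, were followed through the exit from naive pluripotency. They were taken by symbol from the 51826 Ensembl genes of the count table, and each of the 9 symbols matched a single row. The cells were of the V6.5 line of mouse embryonic stem cells, and all 6 libraries were labelled wild type. The 3 embryonic stem cell (ESC) libraries came from cells in LIF and 2i, a cytokine and a pair of inhibitors of GSK3 and MEK that hold the naive state. The 3 epiblast-like cell (EpiLC) libraries came from cells on day 3 without LIF and without 2i. The base medium of both states was Knockout DMEM, and each contained 15% FBS, so serum was shared by the groups. The labels do not say whether libraries of a state came from separate cultures, so p-values measure the spread between these libraries, which may be technical.

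The trophectoderm is the outer layer of the blastocyst and forms the placenta, and the primitive endoderm forms the yolk sac lining. GATA2, GATA3, AP-2 alpha (Tfap2a), AP-2 gamma (Tfap2c), ELF5 and EOMES act in trophectoderm and trophoblast stem cells, and HAND1 acts in trophoblast giant cells. GATA4 and GATA6 specify primitive endoderm. Several of these genes have other uses in the early embryo: EOMES in the primitive streak, AP-2 gamma in naive cells and primordial germ cells, AP-2 alpha in surface ectoderm, and HAND1 and the GATA factors in mesoderm.

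The libraries held 9710410 to 22879812 counts. The state labels were checked with marker genes, of which 10 of 10 naive markers were lower and 9 of 9 formative markers were higher in EpiLC. Over all genes tested 32.6% were lower and 32.0% higher. The markers were chosen with earlier results of these data known, so the check is not independent. ESC replicate 3 stood apart from its group. The chi-square of the counts, divided by its degrees of freedom, was 28.3 and 29.0 between it and ESC replicates 1 and 2, against 2.79 between those libraries and 2.28 to 4.35 among the EpiLC pairs. Relative to the mean of the other ESC libraries, its log2 level differed by 1.69 for Gata3, 1.29 for Gata4, -1.10 for Eomes and -0.073 for Tfap2c. Over all genes tested the median of this difference was -0.016, and over the 10 companion gene lists described further on it ranged from -0.52 for surface ectoderm genes to 1.04 for relatives of the factors. The lists at both ends of this range had 4 tested genes each. The trophectoderm and primitive endoderm lists, with 16 and 14 tested genes, stood at 0.346 and 0.279. Calls that changed without this library are given both ways, and the cause of its difference was not tested.

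Of the 9 factors, 6 had enough counts to be tested with edgeR's quasi-likelihood test, where a call required an adjusted p under 0.05 over all 14996 genes tested. Tfap2c, Tfap2a and Gata2 fell, Gata4 rose, and Gata3 and Eomes were not called. That is 3 lower and 1 higher of 6, or 4 called, while 32.6% of all genes tested were called lower, 32.0% higher and 64.6% either way, so the share called was near the background. The groups did not overlap for those 4 factors, against 70.2% of all genes tested. Hand1, Elf5 and Gata6 had too few counts for the test. Without ESC replicate 3 all 6 tested factors were called, 2 higher and 4 lower, beside 38.0% and 38.7% of all genes and 76.7% either way. Their groups then did not overlap for any of the 6, against 83.1% of all genes tested. With the replicate number as a block the same 4 factors were called, beside 61.6% of all genes.

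**Figure D1:**
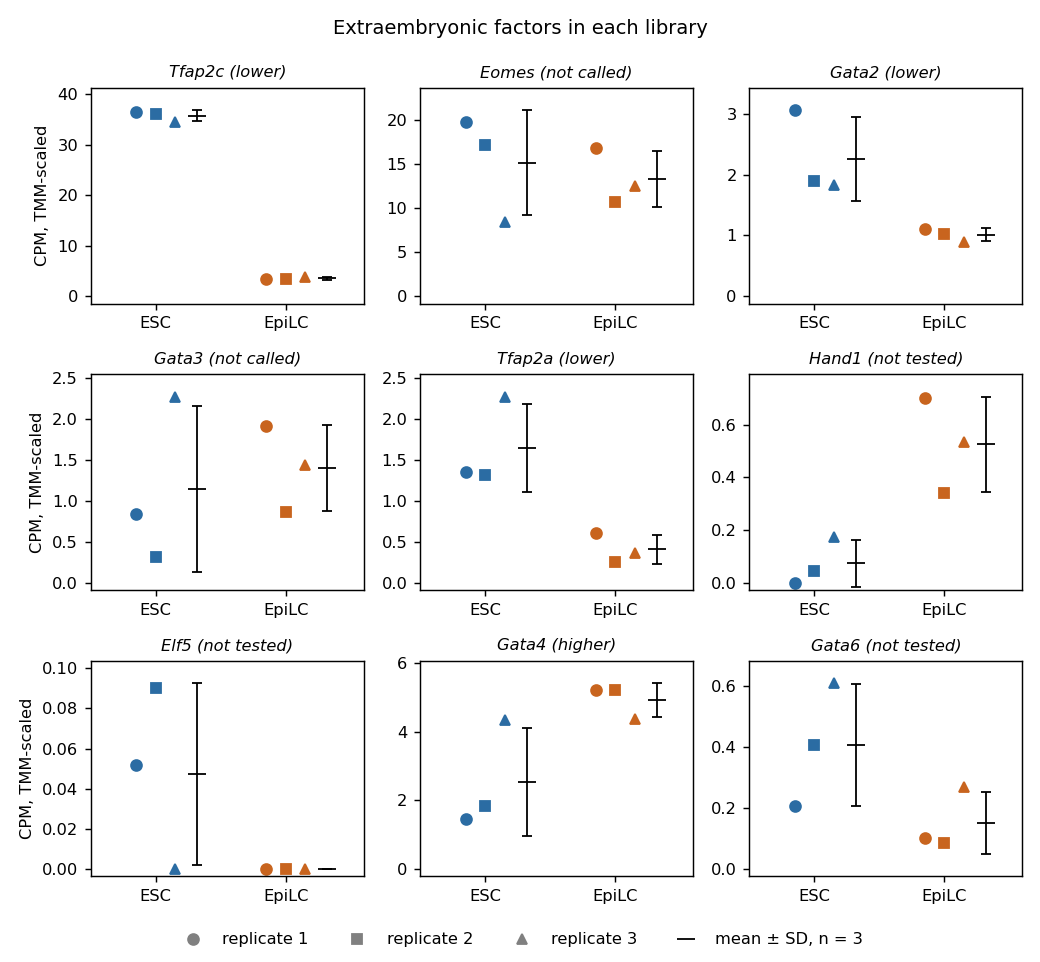
Level of each factor in CPM (counts scaled by TMM-adjusted library totals, linear axis with its own range per panel) in the 3 ESC and 3 EpiLC libraries, with symbols for replicates and a bar for the mean ± SD. The libraries of the states do not overlap for Tfap2c, Tfap2a, Gata2, Gata4 and Hand1. Of the ESC libraries, replicate 3 lies highest for Gata3, Gata4, Gata6, Tfap2a and Hand1 and lowest for Eomes, Gata2, Tfap2c and Elf5.

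Levels of different genes were compared per kilobase of exon. In ESC, Tfap2c stood at 9.73 ± 0.29 CPM per kb (SD, n = 3), above 65.2% of the genes tested, whose median was 5.05. Eomes followed at 3.65 ± 1.43, above 43.5% of them. Gata4, Gata2, Tfap2a and Gata3 had ESC means of 0.654, 0.419, 0.335 and 0.286 CPM per kb, and each neighbouring pair in that order overlapped between libraries. Gata6, Hand1 and Elf5 were lowest, at 0.0626, 0.0366 and 0.0081 CPM per kb, again with overlapping neighbours. In EpiLC the order was led by Eomes at 3.21 ± 0.76 CPM per kb, followed by Gata4 at 1.26 ± 0.12 and Tfap2c at 0.951 ± 0.060, with no overlap between those neighbours. Gata3, Hand1 and Gata2 came next at 0.351, 0.264 and 0.187 CPM per kb and overlapped as neighbours, before Tfap2a at 0.0827 and Gata6 at 0.0232. Apart from Tfap2c in ESC, each factor lay below the median of the tested genes in both states, the EpiLC median being 4.86. In bulk RNA, fewer cells that express a gene and less RNA per cell cannot be told apart.

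**Figure D2:**
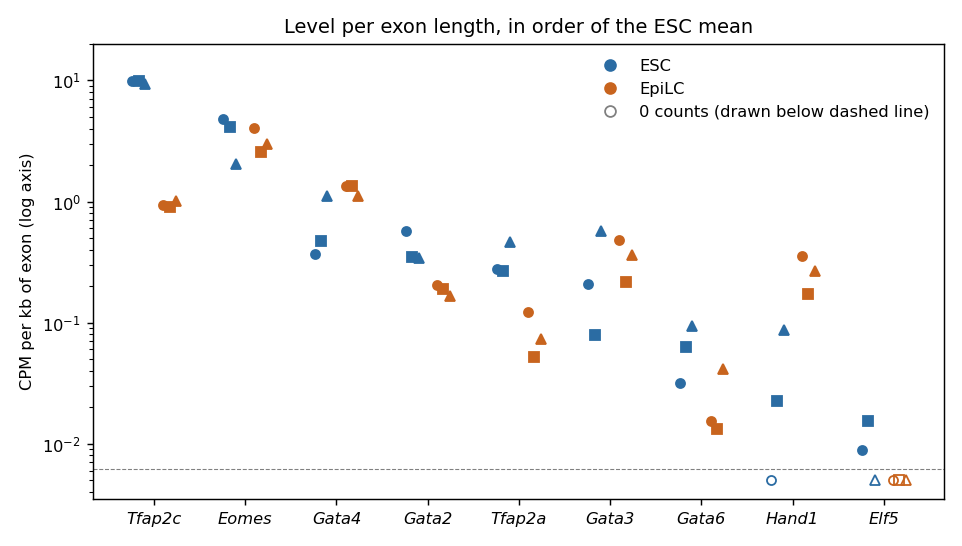
CPM per kb of exon (log axis) of the 9 factors in each library, in the order of their ESC means, with circles, squares and triangles for replicates 1, 2 and 3. Tfap2c moves from the highest place in ESC (9.73) to the third in EpiLC (0.951), and libraries with 0 counts of Hand1 or Elf5 are drawn as open symbols below the dashed line.

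Promoter sequence from RefSeq on GRCm38.p6 was at hand for 5 of the factors. Shown here are the 250 bases before a start of Gata2 and of Tfap2a, which both fell, and of Gata3, which was not called. Each reads 5′ to 3′ on the gene's strand. Capitals mark the AP-2 pattern GCCNNNGGC, which reads the same on both strands, and the GATA patterns AGATAA with its variant AGATAG, together with TGATAA and its variant TGATAG, searched on both strands. The positions are chr6:88193641-88193890 on the plus strand for Gata2, chr13:40734921-40735170 on the minus strand for Tfap2a and chr2:9878601-9878850 on the minus strand for Gata3. The Tfap2a window overlaps an exon of the antisense gene Gm26688, and the Gata3 window an exon of the antisense gene Gm13256.
Gata2: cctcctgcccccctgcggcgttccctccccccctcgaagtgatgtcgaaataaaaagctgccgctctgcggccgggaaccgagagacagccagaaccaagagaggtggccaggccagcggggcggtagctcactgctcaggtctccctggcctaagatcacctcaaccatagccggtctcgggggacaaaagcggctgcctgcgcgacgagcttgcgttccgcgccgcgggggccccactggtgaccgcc
Tfap2a: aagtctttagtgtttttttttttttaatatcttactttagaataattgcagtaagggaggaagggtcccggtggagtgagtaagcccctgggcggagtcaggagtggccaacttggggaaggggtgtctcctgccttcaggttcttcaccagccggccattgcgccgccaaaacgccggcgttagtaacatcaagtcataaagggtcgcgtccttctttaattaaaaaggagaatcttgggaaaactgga
Gata3: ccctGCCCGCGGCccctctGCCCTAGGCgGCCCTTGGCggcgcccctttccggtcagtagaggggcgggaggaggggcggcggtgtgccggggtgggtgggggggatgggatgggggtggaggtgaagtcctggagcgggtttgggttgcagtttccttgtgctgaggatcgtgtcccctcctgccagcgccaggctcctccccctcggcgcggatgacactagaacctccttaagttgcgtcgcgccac
The Gata3 window holds 3 matches to the AP-2 pattern. Of 32851 RefSeq promoter windows of this length, 13.7% hold at least 1 and 0.289% hold 3 or more. The Gata2 and Tfap2a windows hold no match to either pattern, and 26.5% of all windows hold a GATA pattern. For these genes the window of the most upstream RefSeq start is shown. The other Gata2 window holds 1 AP-2 match, the other Tfap2a window and the Eomes window hold no match, and of 2 Elf5 windows 1 holds a GATA pattern. A T-box pattern, TCACACC, was searched as well, on both strands. Of the windows of these 5 factors, the other Elf5 window alone holds it, as do 3.33% of all windows. These matches are descriptions of letters in the windows and show no binding.

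Tfap2c, which encodes AP-2 gamma, showed the largest difference of the 6 tested factors (ENSMUSG00000028640, chromosome 2, 172549593 to 172558622 on GRCm38, as for all gene positions). The ESC libraries, in the order of replicates 1 to 3 here and below, gave 36.6, 36.2 and 34.6 CPM, and the EpiLC libraries 3.41, 3.34 and 3.75 CPM. Both states were tight, and the lowest ESC library lay far above the highest EpiLC library. The gene fell 10.2-fold (adjusted p = 1.68e-07 by edgeR's quasi-likelihood test, log2 fold change -3.35 with SE 0.11). ESC replicate 3 differed little here, with a log2 fold change of -3.39 without it.

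The 3 genes whose log2 levels, each centred on its own mean, followed Tfap2c most closely over the 6 libraries were Hap1, Fam189a2 and Smtnl2. Their root mean square differences from it were 0.071, 0.072 and 0.073 on the log2 scale, the smallest of 10370 genes compared. Hap1 went from 168 ± 4.8 to 17.4 ± 0.42 CPM, Smtnl2 from 166 ± 11 to 17.1 ± 0.38 CPM and Fam189a2 from 11.2 ± 0.69 to 0.850 ± 0.045 CPM. Their falls were 9.63-fold, 9.68-fold and 13.0-fold in that order, near the 10.2-fold of Tfap2c. That nearness follows from choosing them by likeness over the same libraries.

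Tfap2a, which encodes AP-2 alpha (ENSMUSG00000021359, chromosome 13, 40715302 to 40738376), was far lower than Tfap2c in ESC per length. Its counts were 26, 29 and 26 in ESC and 6, 3 and 4 in EpiLC. These are 1.35, 1.31 and 2.27 CPM in ESC and 0.602, 0.257 and 0.357 CPM in EpiLC. The states did not overlap, and ESC replicate 3 was the highest library. Tfap2a fell 3.85-fold (adjusted p = 0.00376 by edgeR, log2 fold change -1.95 with SE 0.42). The antisense gene Gm26688, which overlaps it, held 5 counts over all libraries against 94 of Tfap2a, and the other antisense genes there, Gm47061 and Gm47067, were not analysed here.

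Another AP-2 gene moved the other way. Tfap2e, which encodes AP-2 epsilon, had 4, 6 and 10 counts in ESC and 34, 46 and 33 in EpiLC. Its mean was 0.450 ± 0.37 CPM in ESC and 3.43 ± 0.49 CPM in EpiLC, an 8.83-fold rise with a log2 fold change of 3.14 (SE 0.39, adjusted p = 0.000182 by edgeR). Without ESC replicate 3, its highest ESC library, the log2 fold change was 3.77. Per kilobase, Tfap2c made up 96.4%, 96.1% and 91.4% of the signal of the 5 AP-2 genes in the ESC libraries and 34.5%, 31.7% and 40.7% in the EpiLC libraries. Tfap2e made up 0.965%, 1.27% and 4.06% in ESC and 60.9%, 66.0% and 56.4% in EpiLC. The summed signal of the family was 10.2 to 10.3 CPM per kb in ESC and 2.51 to 2.86 in EpiLC. Thus the EpiLC libraries had a lower family total, and per kilobase Tfap2e held the larger share of it in each of the 3. Before length scaling, Tfap2c had 34, 39 and 42 counts in EpiLC, beside the 34, 46 and 33 of Tfap2e. A larger Tfap2e share in all 3 thus depends on the exon lengths used. Tfap2b had a single count over the 6 libraries and Tfap2d had 0.

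**Figure D3:**
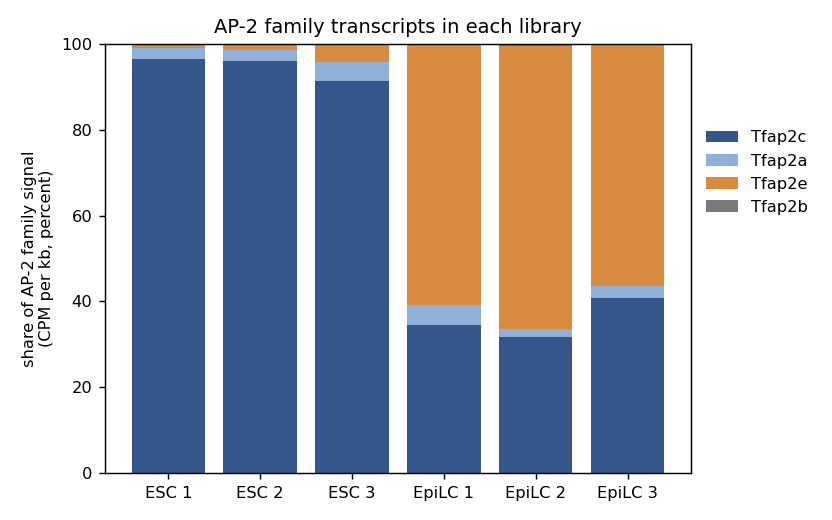
Share of each AP-2 family gene in the family's summed CPM per kb of exon, in percent, in each library. Tfap2c fills 91.4% to 96.4% of the ESC bars, and Tfap2e fills 56.4% to 66.0% of the EpiLC bars.

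Gata2, a zinc finger factor of trophoblast and of blood progenitors (ENSMUSG00000015053, chromosome 6, 88193891 to 88207032), had 59, 42 and 21 counts in ESC and 11, 12 and 10 in EpiLC. Its levels were 3.06, 1.89 and 1.83 CPM in ESC and 1.10, 1.03 and 0.893 CPM in EpiLC. ESC replicate 1 was the highest library, and the states did not overlap. Gata2 fell 2.27-fold (adjusted p = 0.0106 by edgeR, log2 fold change -1.19 with SE 0.32 and 95% interval -1.91 to -0.46). The neighbouring gene Gm38708, which starts within 5 kb on the opposite strand, had 2 counts in all.

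Gata3, a close relative of Gata2 with an early role in trophectoderm (ENSMUSG00000015619, chromosome 2, 9857078 to 9890034), had 16, 7 and 26 counts in ESC and 19, 10 and 16 in EpiLC. It stood at 0.830, 0.315 and 2.27 CPM in ESC and at 1.91, 0.855 and 1.43 CPM in EpiLC. ESC replicate 3 was the highest of all 6 libraries and ESC replicate 2 the lowest, so the states overlapped. It was not called (adjusted p = 0.493 by edgeR, log2 fold change 0.52 with SE 0.64 and 95% interval -0.94 to 1.99). Without ESC replicate 3 it was called higher in EpiLC (adjusted p = 0.0140, log2 fold change 1.28 with SE 0.43), and without ESC replicate 2 the log2 fold change was -0.041. The genes that overlap Gata3, Gm13256, 4930412O13Rik and 9230102O04Rik, had 2, 10 and 3 counts over all libraries, against 94 of Gata3.

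Gata4, the primitive endoderm and heart factor (ENSMUSG00000021944, chromosome 14, 63198922 to 63271692), had 28, 41 and 50 counts in ESC and 52, 61 and 49 in EpiLC. This gave 1.45, 1.85 and 4.36 CPM in ESC and 5.22, 5.22 and 4.38 CPM in EpiLC. The states did not overlap, but ESC replicate 3 lay next to the lowest EpiLC library and far above the other ESC libraries. Gata4 rose 2.12-fold (adjusted p = 0.0288 by edgeR, log2 fold change 1.08 with SE 0.36 and 95% interval 0.25 to 1.92). The call was lost without ESC replicate 1 (adjusted p = 0.0883), ESC replicate 2 (0.102), EpiLC replicate 1 (0.0849), EpiLC replicate 2 (0.0941) or EpiLC replicate 3 (0.0571). Without ESC replicate 3 the rise was larger (adjusted p = 7.02e-06, log2 fold change 1.55 with SE 0.21).

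Gata6, which acts at the top of the primitive endoderm programme (ENSMUSG00000005836, chromosome 18, 11052064 to 11085635), had 4, 9 and 7 counts in ESC and 1, 1 and 3 in EpiLC. The ESC libraries thus lay at 0.207, 0.405 and 0.610 CPM and the EpiLC libraries at 0.100, 0.0855 and 0.268 CPM, with overlap. Summed counts per scaled total were 0.403 times as high in EpiLC as in ESC (exact 95% interval 0.118 to 1.11, counting error only). With no filter on low counts edgeR did not call it (log2 fold change -1.34, adjusted p = 0.138). Gata4 and Gata6 therefore differed in the sign of their values, a difference that was not tested.

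Among the GATA factors of the list, Gata4 held the largest share of the CPM per kb in each EpiLC library, 65.7%, 76.2% and 66.5%. In ESC its share was 31.5%, 49.0% and 52.7%. Gata2 held 48.1%, 36.3% and 16.0% in ESC and 9.81% to 10.8% in EpiLC. The summed signal of these 4 genes was 1.18, 0.965 and 2.12 CPM per kb in ESC and 1.69 to 2.04 in EpiLC, and ESC replicate 3 was the highest library. The blood factor Gata1 had 16 counts in ESC and 2 in EpiLC, and Gata5 had 2 and 3.

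**Figure D4:**
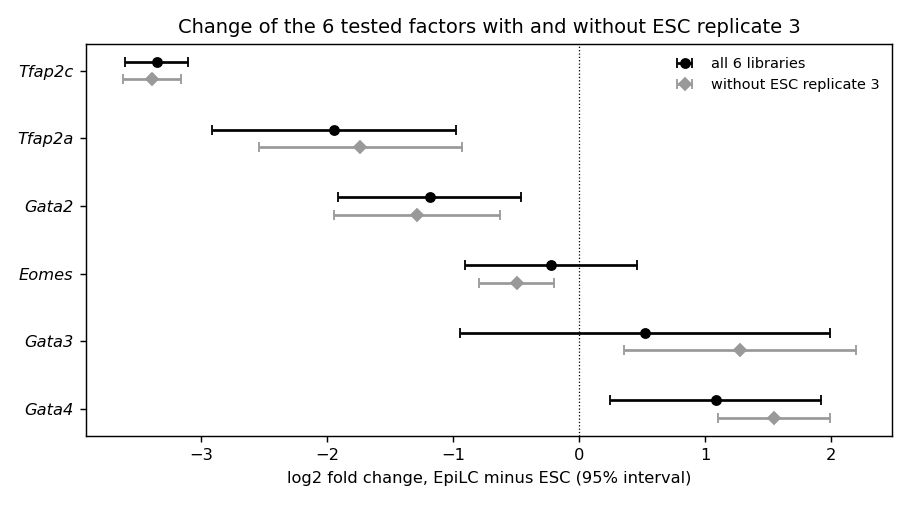
Log2 fold change (EpiLC minus ESC) with its 95% interval from edgeR for the 6 tested factors, with all 6 libraries (black) and without ESC replicate 3 (grey). The intervals of Eomes and Gata3 cross 0 with all libraries and not without ESC replicate 3.

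Eomes, a T-box factor of trophoblast stem cells and of the primitive streak (ENSMUSG00000032446, chromosome 9, 118478212 to 118486132), was counted well in both states. Its levels were 19.8, 17.2 and 8.45 CPM in ESC and 16.9, 10.7 and 12.5 CPM in EpiLC. The highest library was ESC replicate 1 and the lowest was ESC replicate 3, so the states overlapped. Eomes was not called (adjusted p = 0.535 by edgeR, log2 fold change -0.22 with SE 0.30 and 95% interval -0.91 to 0.46). Without ESC replicate 3 it was called lower in EpiLC (adjusted p = 0.00468, log2 fold change -0.49 with SE 0.14). Its antisense neighbour Gm33460 had 20 counts over all libraries against 1293 of Eomes.

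By the same measure of likeness as for Tfap2c, the genes closest to Eomes were Fhl1, Ccdc92 and Axin2, at root mean square differences of 0.133, 0.140 and 0.161 on the log2 scale. Axin2, a feedback inhibitor of WNT signalling, stood at 31.2 ± 11 CPM in ESC and 22.8 ± 3.3 CPM in EpiLC and was not called. Fhl1 (42.8 ± 19 and 37.4 ± 5.8 CPM) and Ccdc92 (6.07 ± 1.9 and 5.93 ± 1.1 CPM) were not called either. As these genes were chosen by likeness over the same libraries, a course like that of Eomes follows from the choice. The T-box relative T, which encodes Brachyury of the primitive streak, averaged 1.5 ± 1.2 CPM in ESC and 6.62 ± 1.6 CPM in EpiLC, a 3.92-fold rise (adjusted p = 0.00480 by edgeR, SE 0.45 of a log2 fold change of 1.97). It had 44, 45 and 2 counts in ESC, so ESC replicate 3 was lowest for T as for Eomes.

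Hand1, a bHLH factor of trophoblast giant cells and of extraembryonic mesoderm (ENSMUSG00000037335, chromosome 11, 57828705 to 57832818), had 0, 1 and 2 counts in ESC and 7, 4 and 6 in EpiLC. In CPM this was at most 0.174 in ESC and 0.342 to 0.703 in EpiLC, without overlap. Summed counts per scaled total were 9.13 times as high in EpiLC (exact 95% interval 2.64 to 48.6, counting error only). With no filter on low counts edgeR called it higher (adjusted p = 0.0101, log2 fold change 2.93 with SE 0.81), a setting in which 17.3% of 29494 genes were called higher. The related gene Hand2 had 8 counts in ESC and 14 in EpiLC.

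Elf5, an ETS factor that keeps trophoblast stem cells (ENSMUSG00000027186, chromosome 2, 103411688 to 103450989), had 1, 2 and 0 counts in ESC and 0 in each EpiLC library. A count of 0 over the EpiLC libraries allows a level of up to 0.0913 CPM, for counting error only. The ESC sum of 3 counts is the size of that limit, so no fold is given.

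The other genes of the trophectoderm moved in both directions. Of 17 trophectoderm and trophoblast stem cell genes beside the factors, 16 were tested, 7 were higher and 6 lower, and 3 were not called, beside 32.0% and 32.6% of all genes tested. Of 15 tested without ESC replicate 3, 8 were higher and 6 lower, beside 38.0% and 38.7% of all genes tested. With all libraries the median difference of the 16 was 0.48 on the log2 scale, against 0.0096 over all genes tested. Tead4, the HIPPO pathway factor that starts the trophectoderm programme, fell 10.2-fold from 44.9 ± 4.9 to 4.43 ± 0.85 CPM (adjusted p = 8.70e-07 by edgeR), a fall close in size to that of Tfap2c. Sox21 fell 7.31-fold to 0.510 ± 0.23 CPM, and the keratin gene Krt18 rose 10.8-fold to 167 ± 16 CPM. Arid3a (50.2 and 54.3 CPM) and Rhox9 (0.855 and 1.6 CPM) were not called, and Rhox9 was called higher without ESC replicate 3 (adjusted p = 0.0364 by edgeR). Cdx2, the defining trophectoderm homeobox gene, had 10, 11 and 2 counts in ESC and 2, 2 and 1 in EpiLC, too few to pass the filter. Its summed counts per scaled total were 0.35 times as high in EpiLC as in ESC (exact 95% interval 0.104 to 0.942, counting error only). With no filter on low counts edgeR did not call it (adjusted p = 0.0705).

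Genes of differentiated trophoblast had few counts. Of 14, 7 had 0 counts in each library, among them the placental hormone genes Prl3d1, Prl3b1 and Prl2c2 and the spongiotrophoblast marker Tpbpa. Since the handling of reads with several matches is not given, a count of 0 need not mean no RNA. With all libraries 3 were tested, of which 2 were higher and 1 lower, beside 32.0% and 32.6% of all genes tested. Without ESC replicate 3, 4 were tested, 3 higher and 1 lower, beside 38.0% and 38.7%. The added gene was Dlx3, called higher (adjusted p = 0.000471 by edgeR), with 13 counts in ESC and 31 in EpiLC over all libraries. Flt1, a VEGF receptor, rose 18.6-fold from 1.74 ± 0.38 to 31.4 ± 3.6 CPM and the lactate transporter Slc16a3 rose 6.25-fold to 400.4 ± 21 CPM. Ascl2, a bHLH factor of spongiotrophoblast, fell 4.16-fold from 5.55 ± 1.5 to 1.32 ± 0.36 CPM.

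Beside the values of Gata4 and Gata6, 22 primitive endoderm and yolk sac endoderm genes were counted, of which 14 were tested, 7 higher, 6 lower and 1 not called, with the same counts without ESC replicate 3. Over all genes tested 32.0% were higher and 32.6% lower, and without ESC replicate 3 38.0% and 38.7%. With all libraries the median log2 fold change was 0.13 in the list against 0.0096 over all genes. The endocytic adaptor gene Dab2 averaged 0.575 ± 0.64 CPM in ESC and 9.996 ± 0.95 CPM in EpiLC and was called higher, with a log2 fold change of 4.41, which became 5.45 once ESC replicate 3 was left out. Sox17, an endoderm factor, had 72 counts in ESC and 2 in EpiLC, 22.3 times as high in ESC per scaled total (exact 95% interval 5.96 to 188), and both EpiLC counts came from EpiLC replicate 3. Hnf4a, of visceral endoderm, had 193 counts in ESC and 0 in EpiLC, at least 39.9-fold lower against a floor of 3 counts over the group, and at least 32.2-fold by the exact 95% interval used for Sox17. Pdgfra (2.03 and 1.92 CPM) was not called. Of defining endoderm markers, Afp had 0 counts throughout, Ttr had 1 in each state, and Foxa2 had 12 and 10. The summed level of the list was 1540, 1523 and 2181 CPM in ESC and 2417 to 2605 CPM in EpiLC, so ESC replicate 3 was the highest ESC library here as for Gata4. The sum rests largely on a few abundant genes. In ESC the highest was Lamc1, a laminin chain gene, at 723, 718 and 1145 CPM. In EpiLC it was Lrp2, at 1293, 1192 and 1259 CPM, against 49.0, 49.5 and 124.9 CPM in ESC. Of the 14 tested genes, 9 were highest and 4 lowest in ESC replicate 3 among the ESC libraries. In the trophectoderm list these were 11 and 4 of 16, and among cofactors and inhibitors 7 and 10 of 18. The share over all genes tested was not counted, so this is not given as a trait of endoderm genes. The part of other cell types in the Gata4 values was not tested.

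Genes that act on these factors moved in both directions. Of 18 cofactors and inhibitors, 10 were higher and 5 lower, and 3 were not called, beside 32.0% and 32.6% of all genes tested. Leaving out ESC replicate 3 gave 11 higher and 6 lower, beside 38.0% and 38.7% of all genes tested. With all libraries the median difference of the 18 was 0.62 on the log2 scale. Id1, which blocks bHLH factors such as HAND1's partners, rose 7.55-fold to 40.9 ± 3.3 CPM, and Tal1, a bHLH partner of GATA factors in blood, rose 6.75-fold to 4.28 ± 0.52 CPM. Cited4, a coactivator that binds AP-2, fell 7.30-fold from 6.49 ± 2.1 to 0.839 ± 0.26 CPM. Cited2 (13.0 and 15.0 CPM), Tcf3 (149 and 137 CPM) and Id3 (19.5 and 30.5 CPM) were not called. Tcf3 was called lower and Id3 higher without ESC replicate 3 (adjusted p = 0.0111 and 0.00111 by edgeR). Named after their values were seen, the AP-2 inhibitor gene Kctd15 rose 1.89-fold to 21.1 ± 1.3 CPM and its relative Kctd1 fell 1.81-fold to 2.49 ± 0.54 CPM. The GATA cofactor gene Zfpm1 fell 1.80-fold to 9.34 ± 1.0 CPM, and Zfpm2 rose 3.91-fold to 1.95 ± 0.55 CPM, also named after their values were seen. Trps1, a GATA-type repressor outside the classical family, fell 2.39-fold from 82.7 ± 31 to 34.4 ± 1.9 CPM, and Tbx21 (1.49 and 1.46 CPM) was not called, or called higher without ESC replicate 3 (adjusted p = 0.0336 by edgeR).

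**Figure D5:**
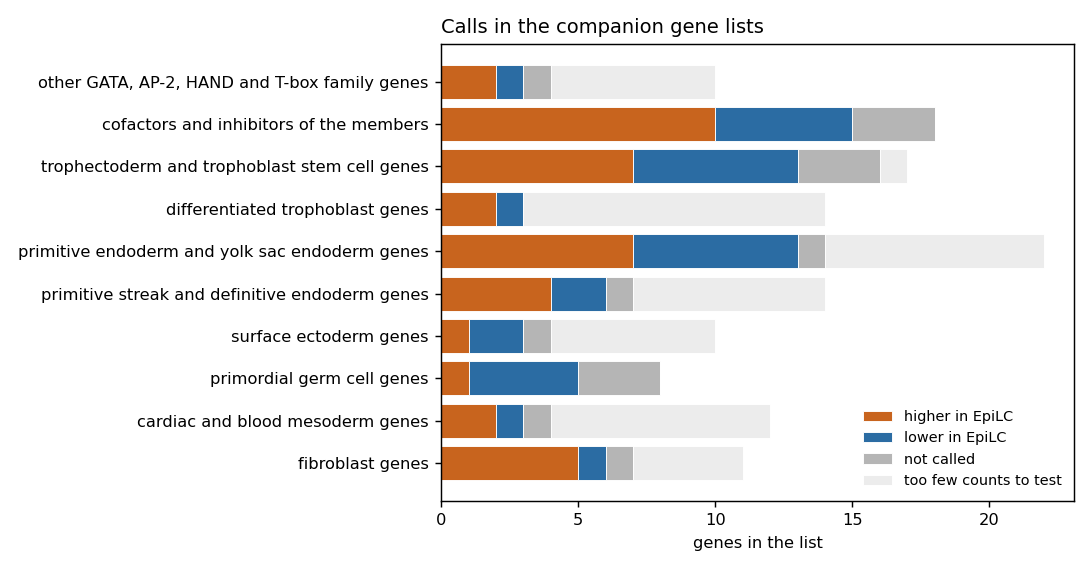
Number of genes in each companion list that were called higher (orange) or lower (blue) in EpiLC, not called (grey) or too low to test (pale). The trophectoderm list has 7 higher and 6 lower genes and the primitive endoderm list 7 and 6, while 11 of 14 differentiated trophoblast genes had too few counts.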

How the data were processed

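RNA was measured by sequencing in 3 ESC and 3 EpiLC libraries. Per the labels' protocols, ribosomal RNA was depleted and a stranded kit was used. The authors deposited raw read counts per Ensembl gene. Per the submitters' processing notes, the tools were cutadapt, STAR, featureCounts and DESeq2 and the build was mm10. Not given in the sources used here were the annotation release, the strand setting of the counting and how reads with several matches were handled, so counts of overlapping and antisense genes are uncertain.

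The table held 51918 rows, of which 92 spike-in rows with 0 counts were left out. Of 51826 genes, 51633 matched GENCODE M21 (GRCm38), which gave symbols, positions and exon lengths. The genes without a match held at most 0.033% of a library's counts.

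Counts were fitted on the whole table with edgeR 4.0.16 in R 4.3.3 (glmQLFit, glmQLFTest, TMM, the state as the single term). The filter filterByExpr used a minimum count of 10 and a total of 15. Tests were two-sided with Benjamini-Hochberg adjustment over all genes tested. SE was derived from the log2 fold change and its F statistic. CPM used TMM-scaled totals, on which 3 counts in a library were 0.135 to 0.301 CPM. Intervals for ratios of summed counts were exact (Clopper-Pearson, 95%). The likeness measure added 0.25 CPM before taking log2 and used protein-coding genes with a mean of at least 5 CPM. The fit was tested on simulated data. Alternatives used DESeq2 1.42.0, limma 3.58.1, other scalings and filters, a replicate block and each library left out.

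The factors and companion lists were chosen with earlier results of these data known. All 9 factors were named, with up to 3 called genes per list of the largest change at 1 CPM or more in the higher state, uncalled genes at that level, genes that overlap a factor or start within 5 kb of its start, and the 3 most alike genes. Lamc1, Cdx2, Gata1, Gata5, Hand2, Tfap2b, Tfap2d, Prl3d1, Prl3b1, Prl2c2, Tpbpa, Afp, Ttr, Foxa2, Kctd1, Kctd15, Zfpm1 and Zfpm2 were named after their values were seen. The same holds for Lrp2, Dlx3 and Mef2c.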

Additional observations from a re-analysis of the deposited data

How the results depend on the processing

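With all libraries, 1 of the 9 factors (Gata4) was called higher and 3 (Tfap2c, Tfap2a and Gata2) lower. The lower calls were kept under DESeq2, upper quartile, RLE and library-total scaling, limma-voom, both other filters, the replicate block and each left-out library, with Eomes added without ESC replicate 3. The count of higher calls was 2 with no low-count filter (Gata4 and Hand1) and ranged from 0 to 2 when single libraries were left out. Gata3 had a log2 fold change of -0.041 to 1.28 with single ESC libraries left out, the sign changing without ESC replicate 2 (not called) and the call being made without ESC replicate 3. The log2 ratio of summed counts of Hand1 was 3.19 with all libraries and 2.52 to 4.41 with single libraries left out, and that of Gata6 was -1.31 and -2.04 to -1.0. Library-total scaling moved the median of all genes by a log2 value of 0.068. Of the 151 companion genes, which include the 19 state markers (all called with all libraries), 101 were tested with all libraries. Of these 101, 49 were higher and 37 lower, beside 64.6% of all genes tested that were called either way. Over the settings the calls stayed within 46 to 55 higher and 35 to 41 lower. The labels do not say that replicate numbers pair libraries, so the numbers were not taken as pairs. Deviations of same-numbered libraries from their group means correlated at -0.085, -0.0059 and -0.15 for replicates 1 to 3. None of the 3 ESC libraries correlated best with its own number. Deviations within a group sum to 0 and ESC replicate 3 stands apart, so these correlations cannot decide whether libraries were paired. With the replicate block 1 factor was higher and 3 lower, and 9231 of all genes were called in place of 9686. With the longest transcript as gene length, 8 of 18 levels moved by more than their SD. Among them were the ESC values of Tfap2c, Gata2 and Gata6, then 12.0, 0.633 and 0.108 CPM per kb. The EpiLC value of Tfap2c, then 1.17 CPM per kb, was another. The ESC value of Elf5, then 0.0145 CPM per kb, moved by less than its SD. The order in ESC was kept, and in EpiLC Gata2 and Hand1 exchanged places. Low counts limit what can be seen for Hand1, Elf5 and Gata6, and no cause was tested for the values that moved.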

Other observations

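Other lineages in which these factors are used were followed with further lists. Of 14 primitive streak and definitive endoderm genes, 7 were tested, 4 were higher, 2 lower and 1 not called, beside 32.0% higher and 32.6% lower over all genes tested. The count of lower genes was 1 without EpiLC replicate 2 and 3 without ESC replicate 3, where 38.7% of all genes tested were lower. Fgf8, a growth factor of the streak, rose 100.8-fold from 0.284 ± 0.22 to 25.8 ± 2.8 CPM, and the WNT ligand gene Wnt3 averaged 0.243 ± 0.18 CPM in ESC and 13.2 ± 2.1 CPM in EpiLC, higher by a log2 fold change of 5.60, which became 6.54 once ESC replicate 2 was left out. Cxcr4 (1.40 and 0.901 CPM) was not called, or called lower without ESC replicate 3 (adjusted p = 0.0323 by edgeR). Of 10 surface ectoderm genes, 4 were tested, with Grhl3 down 10.2-fold from 17.9 ± 2.2 CPM, Krt17 down 10-fold from 13.6 ± 2.8 CPM and Wnt6 up 2.51-fold to 2.25 ± 0.69 CPM. The call of Wnt6 was lost without EpiLC replicate 1 (adjusted p = 0.0501 by edgeR) or EpiLC replicate 3 (0.0522), and Msx2 (1.77 and 1.47 CPM) was not called.

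Of 8 primordial germ cell genes, 1 was higher, 4 lower and 3 not called, beside 32.0% higher and 32.6% lower over all genes tested. Without ESC replicate 3 the count of lower genes was 6, beside 38.7% of all genes tested, with Prdm1 and Nanos3 added (adjusted p = 0.00209 and 0.0157 by edgeR). The count was 3 without ESC replicate 1 or EpiLC replicate 2. Prdm14, a factor of germ cells and of naive cells, had 1935 counts in ESC and 1 in EpiLC and was called lower. The germ cell helicase gene Ddx4 rose 4.09-fold to 53.8 ± 2.2 CPM, and Kit, the receptor of stem cell factor, fell 9.13-fold from 136 ± 43 CPM. Prdm1 (13.1 and 10.7 CPM), Nanos3 (1.13 and 0.666 CPM) and Dppa3 (4.50 and 4.24 CPM) were not called with all libraries. Dppa3 has near-identical copies in the genome, so its counts are uncertain. Of 12 cardiac and blood genes, 4 were tested, 2 higher, 1 lower and 1 not called, beside 32.0% higher and 32.6% lower over all genes tested. Without ESC replicate 3, 5 were tested, 3 higher, 1 lower and 1 not called, beside 38.0% and 38.7%. The added gene was Mef2c, called higher (adjusted p = 5.82e-06 by edgeR), with 2 counts in ESC and 34 in EpiLC over all libraries. Pecam1, an adhesion gene of endothelium and of naive cells, fell 41.6-fold from 158 ± 10 CPM, and the myosin gene Myh6 rose 5.0-fold to 8.60 ± 0.87 CPM, while Runx1 (1.40 and 1.11 CPM) was not called. Nkx2-5 was called higher at 1.09 ± 0.080 CPM (adjusted p = 0.0228 by edgeR, 0.146 by DESeq2). The call was also lost with no low-count filter (0.0526) and without any single library other than ESC replicate 3 (up to 0.0904). Of 11 fibroblast genes, 7 were tested, 5 higher, 1 lower and 1 not called, beside 32.0% higher and 32.6% lower over all genes tested. The uncalled gene, Thy1 (3.10 and 4.86 CPM), was called higher without ESC replicate 3 (adjusted p = 0.0486 by edgeR). Dcn, a matrix proteoglycan gene, had 0 counts in ESC and 143 in EpiLC and was called higher. Col1a2 rose from 0.140 ± 0.044 to 3.83 ± 0.62 CPM and Pdgfrb fell 4.05-fold to 1.82 ± 0.37 CPM.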
